A study of Arabidopsis thaliana with 12 samples.

Results

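The kinases described here are 10 CBL-interacting protein kinases (CIPKs) of Arabidopsis thaliana: CIPK20 (AT5G45820) together with CIPK1 (AT3G17510), CIPK3 (AT2G26980), CIPK5 (AT5G10930), CIPK6 (AT4G30960), CIPK9 (AT1G01140), CIPK11 (AT2G30360), CIPK14 (AT5G01820), CIPK23 (AT1G30270) and CIPK25 (AT5G25110). They were taken by locus identifier from a table of 38088 loci and are 10 of the 26 CIPK genes of the species. CIPK20 was chosen by its difference in level between the genotypes at 0 min, and the basis on which the other 9 were joined to it is not given in the sources used here. Differences between the genotypes at 0 min are therefore given below as descriptions with no test. The kinases were chosen with earlier results of these data known. Counts and medians over the set in the other comparisons may therefore depend on the choice too.

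CIPKs are serine/threonine kinases of plants that are switched on by calcium. A calcineurin B-like protein (CBL) binds calcium, then binds the NAF motif in the regulatory tail of a CIPK, which frees the kinase domain and places it at the plasma membrane or the vacuole membrane, where it phosphorylates ion channels and transporters. The best known pair is the SOS module, in which CBL4 (SOS3) and CIPK24 (SOS2) activate the sodium exporter SOS1 under salt. A stable change in transcript level is not needed for this activation, so the values below describe mRNA and not kinase activity.

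The libraries were made from mRNA of whole seedlings of the accession Col-0 and of dcp5-1, a mutant allele of DCP5, the gene of a decapping factor related to LSM14. Seeds of all groups were kept for 3 days at 4 °C, and seedlings grew for 5 days on 1x MS agar at 22 °C with 16 h of light and 8 h of dark. All seedlings then rested for 30 min in liquid 1x MS medium and were sampled after 0 or 60 min in the same medium with 150 mM NaCl. There were 3 libraries in each of the 4 groups, Col-0 at 0 min, dcp5-1 at 0 min, Col-0 at 60 min and dcp5-1 at 60 min. No sample at 60 min without NaCl is labelled, so salt and 60 min more in liquid medium cannot be told apart, and "salt response" stands below for both. Nothing in the labels tells if the 3 libraries of a group are from separate cultures, so the spread that p-values measure may be technical.

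DCP5 had 48.5, 51.7 and 52.1 FPKM (fragments scaled to the transcript's length and to the library's total) in Col-0 at 0 min and 12.99, 12.96 and 13.16 FPKM in dcp5-1, and its libraries at 60 min were separated in the same direction. Markers of leaf mesophyll (4 genes), guard cells (4) and phloem (3) all had a mean of 1 FPKM or more in each group, as did 5 of 6 root markers. The root marker COBL9 reached 1 FPKM only in Col-0 at 0 min, and none of 3 flower or pollen markers did in any group. Between 23810 and 24223 loci were above 0 in a library. From the steps between low FPKM values the libraries correspond to about 14920000 to 20960000 reads each. The scale on which differences are tested is log2(FPKM + 1), which understates changes of low values, and a gene is called when its limma p, adjusted by the Benjamini-Hochberg method over the 19876 loci whose mean was 1 FPKM or more, is below 0.05. Of the 10 kinase genes 9 were tested; CIPK11 fell under this minimum.

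**Figure D1:**
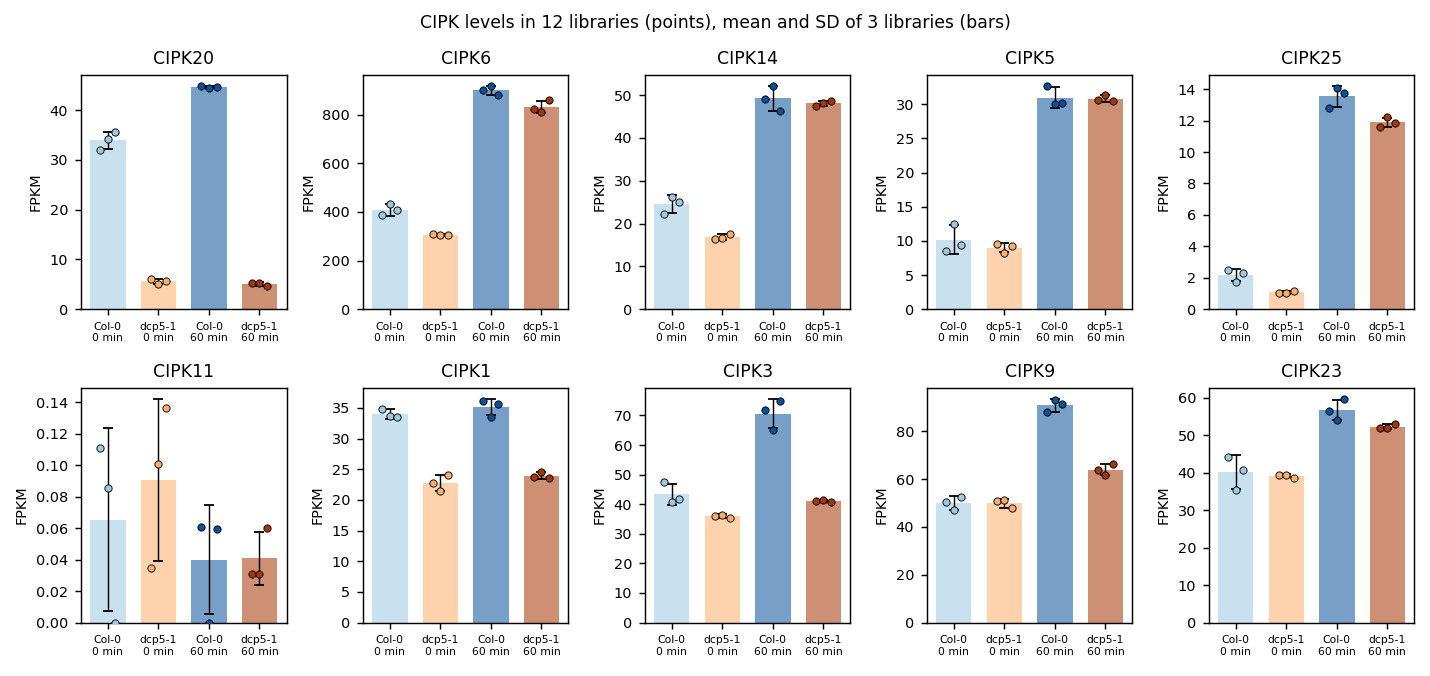
FPKM of each of the 10 CIPK genes in 12 libraries (points), with the mean (bar) and SD (line) of 3 libraries per group; each panel has its own axis from 0. CIPK20 is the gene whose dcp5-1 libraries are far below the Col-0 libraries at both times, while CIPK6, CIPK14, CIPK5 and CIPK25 rise with salt in both genotypes.

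CIPK20, also known as PKS18 and linked to abscisic acid (ABA) sensitivity from studies of its overactive form, lies on chromosome 5 from 18586870 to 18588792 on the minus strand (TAIR10.1) and has 1 exon. Its level was 32.1, 34.1 and 35.6 FPKM in the Col-0 libraries at 0 min and 5.99, 5.13 and 5.64 FPKM in the dcp5-1 libraries. The mutant mean was 16.5% of the Col-0 mean, a log2 difference of -2.41 that chose the gene and is not tested. At 60 min CIPK20 had 44.9, 44.4 and 44.6 FPKM in Col-0 and 5.22, 5.30 and 4.59 FPKM in dcp5-1. The mutant mean was 11.3% of the Col-0 mean and no library of either group came near the other (log2 difference -2.92, SE 0.064, limma adjusted p = 2.61e-10). The gene was chosen with earlier results of these data known, and the spread in this test is taken over all 12 libraries. This p may therefore depend on the choice too. In recovered reads, CIPK20 had 1486 to 1556 per library in Col-0 and 157 to 179 in dcp5-1 at 60 min, so the difference was not limited by depth. Because these are bulk samples, fewer cells that carry a transcript and less of it per cell cannot be told apart.

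With salt CIPK20 rose in Col-0, from 33.9 ± 1.75 to 44.6 ± 0.238 FPKM (mean ± SD, n = 3; log2 difference 0.39, SE 0.064, limma adjusted p = 1.84e-04). In dcp5-1 it went from 5.59 ± 0.435 to 5.04 ± 0.393 FPKM, with overlapping libraries (log2 difference -0.13, 95% interval -0.27 to 0.02, limma adjusted p = 0.107). The responses differed, with that of dcp5-1 lower by 0.51 log2 units (SE 0.091, limma adjusted p = 2.84e-03); the salt responses and this difference share the 0 min libraries with the comparison that chose the gene. The value in dcp5-1 passed the threshold as a fall with quantile normalization, with a trend on transcript length removed and without replicate 2 of dcp5-1 at 0 min (limma adjusted p = 0.0124, 8.32e-03 and 0.0385).

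The 250 bases before the annotated start of CIPK20, from TAIR10.1 and on the gene's strand, are shown because this is the gene with the large difference between genotypes. The stretch holds neither the ABA response core ACGTG, which is present in 22.9% of 27443 promoters of the same length, nor the dehydration core ACCGAC or GCCGAC (7.09% of promoters), each searched on both strands; no letters are in capitals because no motif was found.
CIPK20, chr5:18588793-18589042, minus strand: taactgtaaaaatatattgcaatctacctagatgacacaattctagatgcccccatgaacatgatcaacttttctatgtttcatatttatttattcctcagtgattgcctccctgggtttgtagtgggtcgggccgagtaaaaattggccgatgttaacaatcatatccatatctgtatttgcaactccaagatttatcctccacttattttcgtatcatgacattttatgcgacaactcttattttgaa

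The genes around CIPK20 were compared after their values had been seen. DOG1, the seed dormancy gene, is the next gene upstream on the same strand, with 625 bp between them. It had 3.11, 4.13 and 4.56 FPKM in Col-0 and 0.697, 0.620 and 0.582 FPKM in dcp5-1 at 0 min, and 3.32, 3.95 and 3.49 against 0.781, 0.823 and 0.977 FPKM at 60 min. All dcp5-1 libraries were below all Col-0 libraries at both times (log2 difference at 60 min -1.30, SE 0.115, limma adjusted p = 4.07e-06), at levels under 5 FPKM throughout. CIPK19, a family member known from pollen tubes, lies 279 bp from the other end of CIPK20 in tail-to-tail orientation. It had 0.915 ± 0.238 and 0.728 ± 0.0924 FPKM in Col-0 and dcp5-1 at 0 min and 2.78 ± 0.0899 and 2.65 ± 0.330 FPKM at 60 min. Its genotypes overlapped (log2 difference at 60 min -0.05, limma adjusted p = 0.706), and it rose with salt in both (log2 difference 0.99 in Col-0, limma adjusted p = 7.55e-06). Beyond these, MEE62 was lower in dcp5-1 at 60 min (19.8 against 11.4 FPKM, log2 difference -0.74, limma adjusted p = 4.24e-06) and AT5G45840 was higher (1.39 against 3.12 FPKM, log2 difference 0.78, limma adjusted p = 5.03e-05). At 0 min the libraries of MEE62 overlapped between the genotypes (means 12.8 FPKM in Col-0 and 11.9 in dcp5-1). AT5G45780 was higher in dcp5-1 at 60 min (log2 difference 0.36, limma adjusted p = 5.57e-03), and AT5G45790 was not called (0.04, limma adjusted p = 0.795). Of all loci tested 27.1% were higher and 27.4% lower at 60 min. Whether the differences of these neighbours are linked to that of CIPK20 was not tested.

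**Figure D2:**
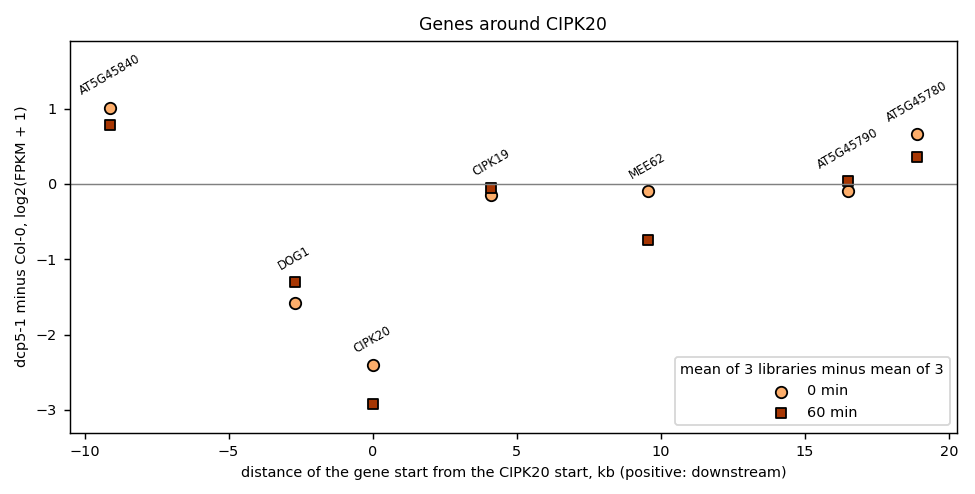
Log2 difference of mean levels, dcp5-1 minus Col-0, at 0 min (circles) and 60 min (squares) for the tested genes around CIPK20, by the distance in kb of each gene's start from the CIPK20 start. CIPK20 and DOG1 lie below 0 at both times, CIPK19 lies near 0 and AT5G45840 lies above 0.

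FPKM is scaled to transcript length, and levels of different genes are set side by side here on that basis. The program and the transcript models behind the scaling are not given, so the order between genes is less certain than differences within a gene. CIPK6 had the highest level of the 10 kinases in each of the 4 groups. In Col-0 at 0 min CIPK6 stood first with 409 ± 23.9 FPKM, followed by CIPK9 with 50.02 ± 2.82, CIPK3 with 43.4 ± 3.61, CIPK23 with 40.1 ± 4.46, CIPK1 with 34.0 ± 0.769 and CIPK20 with 33.9 ± 1.75. Below these came CIPK14 with 24.5 ± 2.12, CIPK5 with 10.14 ± 2.12 and CIPK25 with 2.19 ± 0.390 FPKM. The libraries of CIPK9 and CIPK3, of CIPK3 and CIPK23 and of CIPK1 and CIPK20 overlapped, so those neighbours could not be ordered. CIPK6 made up 40.9% of the summed FPKM of all 26 CIPK genes in this group and 57.8% in Col-0 at 60 min. Its shares in dcp5-1 were 35.6% and 57.1%. The sum takes CIPK11 at its listed values, from which no level is read below. CIPK20 made up 3.40% and 2.86% of that sum in Col-0, against 0.648% and 0.346% in dcp5-1, where it ranked under CIPK5 at 0 min and also under CIPK25 at 60 min.

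In Col-0, 8 of the 9 kinases tested rose with salt, none fell and 1, CIPK1, was not called, where 36.3% of all loci tested rose and 35.7% fell. In dcp5-1, 7 rose, none fell and 2, CIPK1 and CIPK20, were not called, against 35.1% and 31.6% of all loci. The median log2 difference of the 9 was 0.85 in Col-0 and 0.41 in dcp5-1, beside 0.01 and 0.02 over all loci tested. The libraries of 0 and 60 min did not overlap for 8 of the 10 genes in Col-0 and for 7 in dcp5-1, all of them higher at 60 min. Over all loci tested 37.4% were higher and 36% lower without overlap in Col-0, and 38.4% and 34.9% in dcp5-1. As it is not known if salt values had a part in choosing the set, these counts are a description of it.

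**Figure D3:**
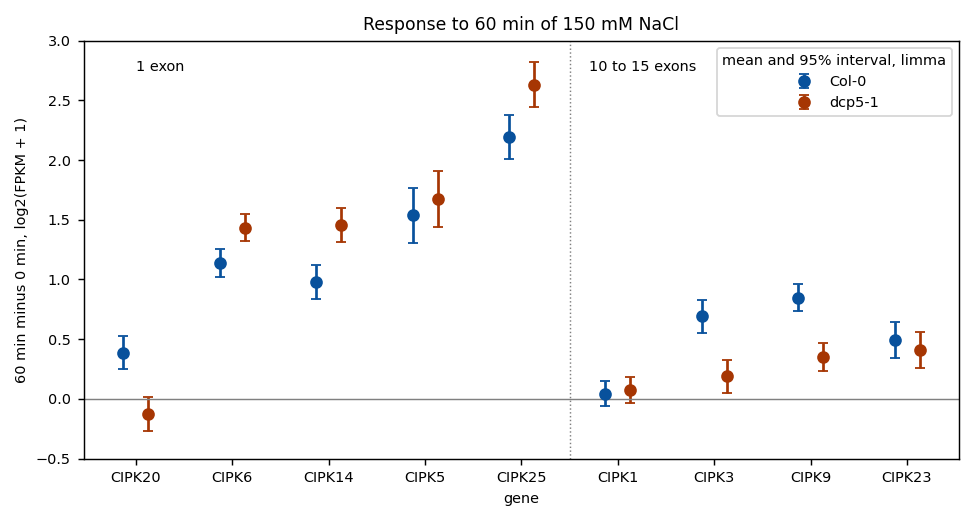
Salt response of the 9 kinases tested, as 60 min minus 0 min on the log2(FPKM + 1) scale, with 95% intervals from limma, in Col-0 (blue) and dcp5-1 (red); genes with 1 exon are on the left and those with 10 to 15 exons on the right. CIPK6, CIPK14 and CIPK25 stand higher in dcp5-1, CIPK20, CIPK3 and CIPK9 stand higher in Col-0.

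The steepest rises were those of CIPK25, CIPK5, CIPK6 and CIPK14, each a gene with 1 exon. CIPK25 had 2.50, 1.75 and 2.32 FPKM in Col-0 at 0 min and 12.8, 14.1 and 13.8 FPKM at 60 min. In dcp5-1 it had 1.05, 1.01 and 1.17 FPKM at 0 min and 11.6, 12.2 and 11.8 FPKM at 60 min. Every 60 min library was above every 0 min library, a 6.19-fold rise of the mean in Col-0 and an 11.0-fold rise in dcp5-1 (log2 differences on the scale with the pseudocount 2.20 and 2.63, limma adjusted p = 9.12e-10 and 2.69e-10). The rise was steeper in dcp5-1 by 0.44 log2 units (SE 0.120, limma adjusted p = 0.0228), a call that was lost without any 1 of 3 libraries, replicate 1 of Col-0 at 60 min, replicate 2 of dcp5-1 at 0 min or replicate 2 of dcp5-1 at 60 min (limma adjusted p = 0.0573, 0.0501 and 0.0535). At 0 min CIPK25 rested on 28 to 62 recovered reads a library, the fewest among the kinases tested for which reads could be recovered.

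CIPK6, which with CBL4 brings the potassium channel AKT2 to the plasma membrane, had 386, 434 and 406 FPKM in Col-0 at 0 min and 904, 918 and 879.8 FPKM at 60 min. In dcp5-1 it had 310.5, 304 and 306 FPKM at 0 min and 822, 811 and 860.1 FPKM at 60 min. The mean rose 2.20-fold in Col-0 and 2.71-fold in dcp5-1 with no overlap of libraries (log2 differences 1.14 and 1.44, limma adjusted p = 4.00e-09 and 7.70e-10), and the genotypes were apart at 0 min, where the mutant mean was 75.0% of that of Col-0. At 60 min the mutant mean was 92.3% of the Col-0 mean (log2 difference -0.12, 95% interval -0.23 to 0.00, limma adjusted p = 0.0861). The responses differed by 0.30 log2 units (SE 0.075, limma adjusted p = 0.0158), a difference that fell to 0.08 with quantile normalization (limma adjusted p = 0.38).

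CIPK14 went from 22.1, 26.2 and 25.1 to 49.2, 52.2 and 46.3 FPKM in Col-0 and from 16.3, 16.7 and 17.6 to 47.5, 48.2 and 48.5 FPKM in dcp5-1. The genotypes were apart at 0 min and overlapped at 60 min. CIPK14 rose in both (log2 differences 0.98 and 1.46, limma adjusted p = 7.07e-08 and 3.27e-09), and the rise was steeper in dcp5-1 by 0.48 log2 units (SE 0.091, limma adjusted p = 4.02e-03). CIPK5 went from 8.46, 12.5 and 9.44 to 32.7, 30.0 and 30.2 FPKM in Col-0 and from 9.51, 8.27 and 9.19 to 30.6, 31.4 and 30.4 FPKM in dcp5-1. Its genotypes overlapped at both times and it rose in both (log2 differences 1.54 and 1.67, limma adjusted p = 1.11e-07 and 7.32e-08), and the difference between its responses was 0.14 log2 units (95% interval -0.19 to 0.47, limma adjusted p = 0.546). At 60 min the interval of the genotype difference was -0.24 to 0.23 for CIPK5 and -0.17 to 0.11 for CIPK14. Across the 12 libraries the log2 values of CIPK5, CIPK6, CIPK14 and CIPK25 correlated with each other at Pearson r between 0.97 and 0.99, which describes 4 groups that differ in treatment and genotype.

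The promoters of these 4 genes are shown because the genes moved together. Among the 10 kinases ACGTG was present in 1 promoter, that of CIPK6, where it occurs as the palindrome CACGTG, in capitals below, with its first base 155 bases before the annotated start. The promoters of CIPK5, CIPK14 and CIPK25 held no ACGTG, none of the 10 held the dehydration core, CGCGT (in 6.87% of all promoters) or AAATATCT (4.79%), and TTGAC was present in 5, CIPK1, CIPK6, CIPK9, CIPK11 and CIPK14, against 44.9% of all promoters. All motifs were searched on both strands, and a match or its absence in this window says nothing about binding.
CIPK6, chr4:15066778-15067027, plus strand: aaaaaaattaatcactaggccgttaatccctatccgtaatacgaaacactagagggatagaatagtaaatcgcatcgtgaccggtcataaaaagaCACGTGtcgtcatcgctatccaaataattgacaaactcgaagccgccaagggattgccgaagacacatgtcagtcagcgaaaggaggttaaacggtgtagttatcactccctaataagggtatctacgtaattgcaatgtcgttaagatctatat
CIPK14, chr5:315406-315655, minus strand: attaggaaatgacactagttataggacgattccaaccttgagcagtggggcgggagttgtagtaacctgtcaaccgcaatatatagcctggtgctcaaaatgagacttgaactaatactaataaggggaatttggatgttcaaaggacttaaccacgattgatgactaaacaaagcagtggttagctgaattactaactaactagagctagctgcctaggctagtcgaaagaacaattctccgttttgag
CIPK5, chr5:3447279-3447528, minus strand: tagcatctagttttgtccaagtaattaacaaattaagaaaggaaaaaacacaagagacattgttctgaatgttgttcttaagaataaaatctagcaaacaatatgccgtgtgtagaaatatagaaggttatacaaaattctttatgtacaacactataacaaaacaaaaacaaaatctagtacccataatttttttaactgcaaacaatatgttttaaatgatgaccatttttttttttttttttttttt
CIPK25, chr5:8659353-8659602, minus strand: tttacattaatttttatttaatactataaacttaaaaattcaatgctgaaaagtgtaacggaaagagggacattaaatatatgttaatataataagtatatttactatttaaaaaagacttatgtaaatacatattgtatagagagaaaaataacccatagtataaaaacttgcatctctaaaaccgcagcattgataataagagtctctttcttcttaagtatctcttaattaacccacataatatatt

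The other 4 kinases tested have 10 to 15 exons. CIPK3, known from ABA and cold signalling, had 47.5, 40.8 and 41.9 FPKM in Col-0 at 0 min and 71.9, 65.2 and 74.8 FPKM at 60 min. In dcp5-1 it had 35.96, 36.5 and 35.2 FPKM at 0 min and 41.3, 41.3 and 40.7 FPKM at 60 min. It rose 1.63-fold in Col-0 and 1.14-fold in dcp5-1 (log2 differences 0.69 and 0.19, limma adjusted p = 1.18e-06 and 0.0193), and the rise in dcp5-1 was smaller by 0.50 log2 units (SE 0.089, limma adjusted p = 2.83e-03). The small rise in dcp5-1 was no longer called with the length trend removed (0.03 log2 units, limma adjusted p = 0.658) or without replicate 3 of dcp5-1 at 0 min (limma adjusted p = 0.0581). At 60 min the mutant mean was 58.2% of the Col-0 mean, with no overlap (log2 difference -0.77, SE 0.063, limma adjusted p = 2.57e-06).

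CIPK9, a kinase of potassium homeostasis, had 50.5, 47.0 and 52.5 FPKM in Col-0 and 50.7, 51.3 and 47.7 FPKM in dcp5-1 at 0 min. At 60 min it had 87.9, 93.3 and 91.3 FPKM in Col-0 and 63.7, 61.8 and 66.3 FPKM in dcp5-1. The genotypes overlapped at 0 min, where the mutant mean was 99.8% of the Col-0 mean, and were apart at 60 min, where it was 70.4% (log2 difference -0.50, SE 0.052, limma adjusted p = 1.41e-05). CIPK9 rose in both genotypes, by 0.85 log2 units in Col-0 and 0.35 in dcp5-1 (limma adjusted p = 4.00e-08 and 9.67e-05), and the responses differed by -0.50 (SE 0.074, limma adjusted p = 1.09e-03).

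CIPK1, which binds CBL1 and CBL9, differed between genotypes and not detectably between times. It had 34.9, 33.7 and 33.5 FPKM in Col-0 and 22.7, 21.5 and 24.0 FPKM in dcp5-1 at 0 min, and 36.1, 33.6 and 35.7 against 23.7, 24.6 and 23.5 FPKM at 60 min. The mutant mean was 66.9% of the Col-0 mean at 0 min and 68.2% at 60 min, each with no overlap (log2 difference at 60 min -0.53, SE 0.049, limma adjusted p = 5.72e-06). Its salt responses were 0.04 log2 units in Col-0 (95% interval -0.06 to 0.15, limma adjusted p = 0.433) and 0.07 in dcp5-1 (limma adjusted p = 0.22). The direction of the Col-0 response depended on the scaling, at 0.23 after quantile normalization and -0.19 once the trend on length was removed, each called (limma adjusted p = 2.32e-03 and 5.09e-03).

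CIPK23, which activates the potassium channel AKT1 and phosphorylates the nitrate transporter NPF6.3, had 44.2, 35.4 and 40.7 FPKM in Col-0 and 39.4, 39.3 and 38.6 FPKM in dcp5-1 at 0 min. At 60 min it had 56.4, 54.1 and 59.6 FPKM in Col-0 and 52.0, 51.9 and 53.0 FPKM in dcp5-1. It rose in both genotypes (log2 differences 0.49 and 0.41, limma adjusted p = 4.20e-05 and 2.33e-04), and the responses differed by -0.08 (95% interval -0.30 to 0.13, limma adjusted p = 0.56). The 60 min libraries of dcp5-1 were all below those of Col-0 by a small margin, a log2 difference of -0.11 that was not called (limma adjusted p = 0.18).

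At 60 min 4 of the 9 kinases tested were lower in dcp5-1, none was higher and 5 were not called, where 27.4% of all loci tested were lower and 27.1% higher. The 4 were CIPK20, CIPK3, CIPK1 and CIPK9. The count rose to 7 with quantile normalization, which added CIPK6, CIPK14 and CIPK23, and to 7 without replicate 2 of Col-0 at 0 min, which added CIPK6, CIPK23 and CIPK25; it was 6 with only the libraries of the compared groups in the fit, which added CIPK23 and CIPK25. CIPK14 and CIPK5 changed sign with the length trend removed (0.04 and 0.06). The median log2 difference of the 9 was -0.17, beside -0.01 over all loci. At 0 min 6 of the 10 genes had libraries that did not overlap between the genotypes, all lower in dcp5-1, where 30.7% of loci were lower and 21.3% higher without overlap; this contrast chose CIPK20 and nothing is read from that count. At 60 min 7 of the 10 did not overlap, all lower in dcp5-1, where 33.2% of loci were lower and 31.9% higher without overlap. The interaction of genotype and salt, the response in dcp5-1 minus that in Col-0, was called for 6 of the 9, above 0 for CIPK6, CIPK14 and CIPK25 and below 0 for CIPK20, CIPK3 and CIPK9, where it was above 0 for 16.3% of loci tested and below 0 for 8.06%.

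**Figure D4:**
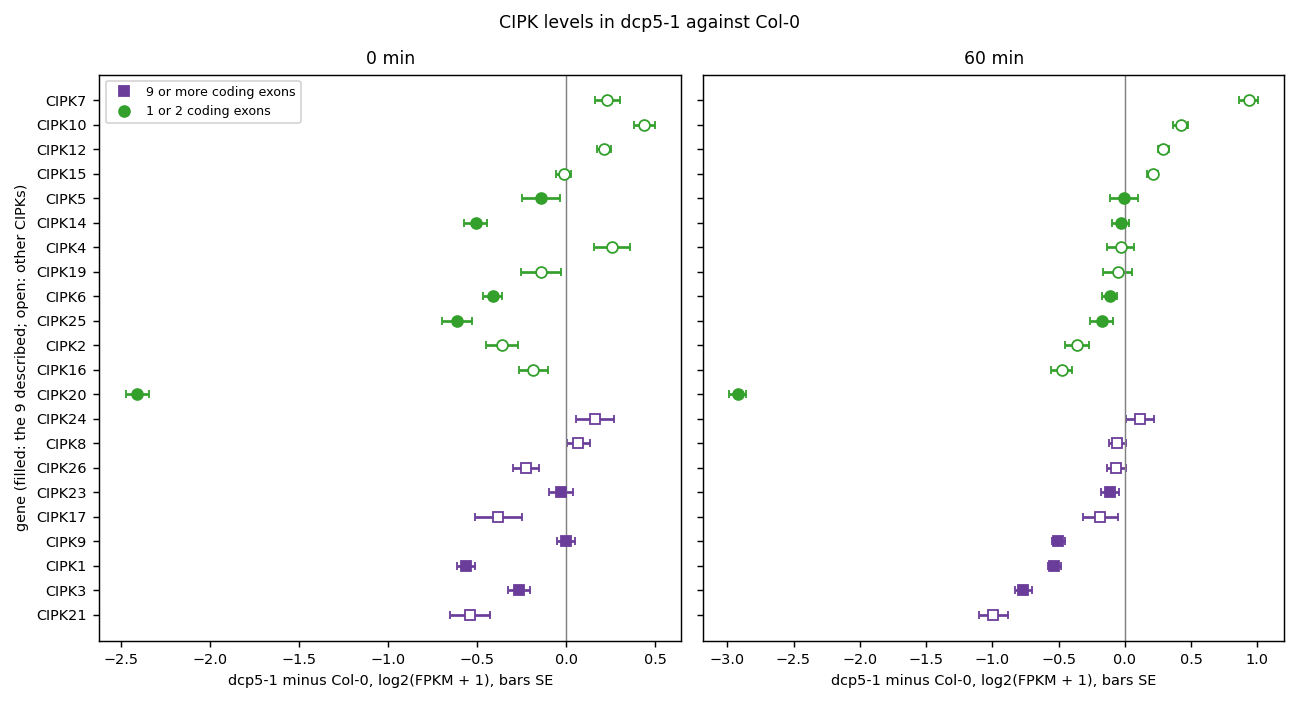
Log2 difference, dcp5-1 minus Col-0, with its SE for the 22 CIPK genes tested, at 0 min (left) and 60 min (right); squares are genes with 9 or more coding exons, circles genes with 1 or 2, filled symbols the 9 kinases described and open symbols the other CIPKs. CIPK20 stands far to the left of all others at both times. At 60 min 8 of the 9 squares and 9 of the 13 circles lie below 0, whether or not the gene was called.

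The kinases also differ in their gene models. CIPK genes fall into a group with many introns and a group with few or none, and in the set described CIPK1, CIPK3, CIPK9 and CIPK23 belong to the first and the others have 1 exon each. At 60 min the many-exon genes had log2 differences between genotypes from -0.77 to -0.11. Of the 1-exon genes tested CIPK20 had -2.92, the lowest of all, and the others had -0.17 to -0.01. Over all 22 CIPK genes tested, 8 of the 9 with many exons and 9 of the 13 with 1 or 2 exons had a difference below 0 at 60 min. These are counts of sign, whether or not the gene was called. The medians were -0.18 and -0.03, beside -0.01 over all loci tested. The ranges of these groups overlapped, from -0.99 to 0.11 and from -2.92 to 0.93, and the counts are a description of one family.

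CIPK11, also known as PKS5, which restrains the plasma membrane proton pump AHA2, was at or near 0 in this table. Its highest value in any library was 0.136 FPKM, it was listed at 0 in 1 Col-0 library at each time, and 0 to 4 reads were recovered per library. It lies on chromosome 2 from 12936968 to 12938834 on the minus strand, and a locus annotated as a long noncoding RNA on the plus strand, AT2G30362, covers 1823 of its 1867 bp and shares 98.2% of its stretches of 50 bases. That locus, looked up after the low value of CIPK11 had been seen, had 46.9, 52.1 and 52.1 FPKM in Col-0 and 47.1, 41.9 and 44.6 FPKM in dcp5-1 at 0 min. At 60 min it had 70.0, 69.2 and 65.8 FPKM in Col-0 and 68.6, 69.1 and 67.1 FPKM in dcp5-1. Its libraries rose with salt without overlap in both genotypes (log2 differences 0.43 and 0.61, limma adjusted p = 2.06e-05 and 1.52e-06), and the libraries of the genotypes overlapped at both times, with a mean lower in dcp5-1 at 0 min (log2 difference -0.17, limma adjusted p = 0.0223) and not called apart at 60 min (limma adjusted p = 0.996). Whether the counting used strand is not given in the sources used here, so reads of CIPK11 and of this locus cannot be told apart, and no level of CIPK11 is read from the table. The other 9 kinases shared no stretch of 50 bases with another locus.

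Among the 14092 loci whose mean reached 5 FPKM, those whose log2 values followed CIPK20 most closely over the 12 libraries were TRM3 (Pearson r = 0.994), the linker histone gene HIS1-3 (0.993), the chlorophyll-binding protein gene LHCB2.3 (0.990), the transcription factor gene WRKY33 (0.989) and the asparagine synthetase gene ASN1 (0.989). HIS1-3 went from 41.1 ± 1.37 FPKM in Col-0 to 8.60 ± 1.44 in dcp5-1 at 0 min and from 47.8 ± 1.81 to 8.54 ± 1.24 FPKM at 60 min. Pearson r does not measure the size of a difference. TRM3, with the highest r, had 41.6 FPKM in Col-0 and 25.7 in dcp5-1 at 0 min and 45.2 and 23.4 FPKM at 60 min. Of the kinases CIPK1 was closest (r = 0.98), while CIPK5, CIPK6, CIPK14, CIPK23 and CIPK25 had r between 0.09 and 0.24 with CIPK20. These correlations rest on 4 groups, share libraries and depth, and include the 0 min difference that chose CIPK20.

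Summed levels of marker genes differed between the groups beside these results. Leaf mesophyll markers summed to 27096 to 32657 FPKM in Col-0 and 15816 to 17281 in dcp5-1 at 0 min, and to 10792 to 12518 and 9235 to 9498 FPKM at 60 min. Root markers, of which 5 or 6 of 6 reached 1 FPKM in each group, summed to 96.5 to 97.6 and 73.6 to 86.4 FPKM at 0 min and to 93.5 to 103.9 and 71.0 to 77.1 FPKM at 60 min. Both sums were lower in dcp5-1 at each time, as CIPK20 was. Of single markers, libraries overlapped between the genotypes for SCR at both times and for RBCS2B at 60 min, and all other root and mesophyll markers were lower without overlap. Guard cell markers summed to 58.5 to 59.6 FPKM in Col-0 and 43.5 to 48.2 in dcp5-1 at 60 min and overlapped at 0 min. Phloem markers summed to 59.6 to 66.5 FPKM in Col-0 and 51.4 to 55.5 in dcp5-1 at 0 min and overlapped at 60 min. The single phloem markers were divided at 0 min. SUC2 and SEOR1 were lower in dcp5-1 without overlap, and APL was higher without overlap (17.2 FPKM in Col-0 and 22.0 in dcp5-1). The part of tissue composition in the differences of the kinases was not tested.

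The remaining 16 CIPK genes did not share one direction. Of 13 tested, 6 rose, 6 fell and 1 was not called with salt in Col-0, and 5 rose, 3 fell and 5 were not called in dcp5-1, against the shares of all loci given above (36.3% and 35.7% in Col-0, 35.1% and 31.6% in dcp5-1). CIPK15 (PKS3), which binds the phosphatase ABI2 and restrains ABA responses, lies next to CIPK14 in tail-to-tail orientation and moved the other way with salt. It fell from 123 ± 4.35 to 45.9 ± 0.944 FPKM in Col-0 (log2 difference -1.40, limma adjusted p = 1.34e-10) and from 122 ± 1.46 to 53.3 ± 1.92 FPKM in dcp5-1. CIPK4 fell from 6.61 to 3.17 FPKM in Col-0, and CIPK21, a kinase of salt tolerance, CIPK8 and CIPK10 rose (log2 differences 0.64, 0.48 and 0.45). CIPK21 shares 12.7% of its 50-base stretches with AT5G57565 and CIPK10 shares 6.47% with AT5G58375, so their values are less certain.

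At 60 min 4 of these 13 were higher in dcp5-1, 3 lower and 6 not called, where 27.1% of all loci were higher and 27.4% lower. CIPK7 had the largest difference among those higher, with means of 72.7 ± 2.09 in Col-0 against 139.8 ± 3.12 FPKM in dcp5-1 (log2 difference 0.93, limma adjusted p = 1.44e-06). With salt it fell in Col-0 from 99.7 ± 11.1 FPKM (log2 difference -0.44, limma adjusted p = 1.34e-04) and rose in dcp5-1 from 117 ± 5.75 FPKM (0.26, limma adjusted p = 7.08e-03), so the responses differed by 0.70 (limma adjusted p = 9.06e-04). The fall in Col-0 was not called with quantile normalization (log2 difference -0.03, limma adjusted p = 0.633). CIPK10 (0.42) and CIPK12 (0.29) were also higher, and CIPK21 was lower (-0.99, limma adjusted p = 2.34e-05). The interaction was called for 2 of the 13, CIPK7 and CIPK15, both above 0, and not for 11. It was above 0 for 16.3% of all loci tested and below 0 for 8.06%. For CIPK15, which fell in both genotypes, the fall was smaller in dcp5-1 by 0.22 log2 units (limma adjusted p = 0.0205), a call that was lost without replicate 3 of dcp5-1 at 60 min (limma adjusted p = 0.0552) and with quantile normalization (log2 difference 0.03, limma adjusted p = 0.752).

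The CBL calcium sensors that switch these kinases on mostly fell. Of 7 of the 10 that were tested, 6 fell, 1 rose and none was uncalled with salt in Col-0, and 5 fell, 1 rose and 1 was not called in dcp5-1, where 35.7% of all loci fell in Col-0 and 31.6% in dcp5-1. CBL1, a sensor at the plasma membrane, fell from 53.1 ± 2.47 to 15.1 ± 0.760 FPKM in Col-0 (log2 difference -1.75, limma adjusted p = 1.43e-10) and from 47.2 ± 0.822 to 17.1 ± 0.895 FPKM in dcp5-1. CBL3, a sensor at the vacuole membrane, fell from 77.8 ± 5.36 to 47.6 ± 1.44 FPKM in Col-0. CBL10, known for salt tolerance in shoots, fell from 23.5 ± 1.95 to 18.3 ± 1.40 FPKM, a call lost with the length trend removed (limma adjusted p = 0.313).

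The sensor that rose was CBL4 of the SOS module, from 2.80 ± 0.223 to 5.88 ± 0.530 FPKM in Col-0 (log2 difference 0.86, limma adjusted p = 7.23e-05; 0.0962 with the length trend removed). Its partners in the module did not pass the test, CIPK24 with 3.73 ± 0.478 and 3.90 ± 0.413 FPKM and SOS1 with 3.34 ± 0.281 and 3.95 ± 0.486 FPKM at 0 and 60 min in Col-0; with the length trend removed SOS1 was called lower (log2 difference -0.33, limma adjusted p = 0.0115). At 60 min CBL3 (0.39) and CBL1 (0.17) were higher in dcp5-1 and CBL10 (-0.91) and CBL4 (-0.35) lower, with 3 not called. Of all loci tested 27.1% were higher and 27.4% lower. The calls of CBL1 and CBL4 were lost under several alternatives. At 0 min 1 sensor was higher in dcp5-1, 2 were lower and 4 were not called, against 18.8% of all loci higher and 28.1% lower.

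Of 20 substrates and partners of CIPKs 19 were tested, and 8 rose, 6 fell and 5 were not called with salt in Col-0, shares near those of all loci (36.3% and 35.7%). ABI1 and ABI2, phosphatases that restrain ABA signalling and bind CIPKs, rose most, ABI1 from 12.6 ± 0.354 to 197 ± 5.76 FPKM (log2 difference 3.87, limma adjusted p = 7.64e-14) and ABI2 from 6.93 ± 0.646 to 46.9 ± 2.19 FPKM. The anion channel gene SLAH3 fell from 99.3 ± 6.299 to 22.2 ± 1.202 FPKM (log2 difference -2.11, limma adjusted p = 3.97e-11), and the iron uptake genes IRT1 and FIT fell by 1.38 and 1.08 log2 units. In dcp5-1 8 of the 19 rose, 8 fell and 3 were not called, where 35.1% of all loci rose and 31.6% fell.

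At 60 min 5 of the 19 were higher in dcp5-1, 8 lower and 6 not called, where 27.1% of all loci were higher and 27.4% lower. NPF6.3 was among those lower, with 12.1 ± 0.200 FPKM in Col-0 and 7.26 ± 0.720 in dcp5-1 (log2 difference -0.67, limma adjusted p = 7.27e-05). So was AKT1, with 10.6 ± 0.556 and 6.54 ± 0.238 FPKM (-0.63, limma adjusted p = 3.17e-05). SLAH3 was lower too (-0.45), and IRT1 (0.94) and GRIK1 (0.44), a kinase that phosphorylates SnRK kinases including CIPK24, were higher. At 0 min 4 were higher in dcp5-1, 9 lower and 6 not called, where 18.8% of all loci were higher and 28.1% lower. The interaction was above 0 for 2, below 0 for 1 and not called for 16, where it was above 0 for 16.3% of all loci tested and below 0 for 8.06%.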

How the data were processed

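Per the labels' protocols, total RNA of seedlings was sequenced as mRNA. The authors deposited 1 table of FPKM values, which scale fragments by transcript length and library total, with 38088 loci and 12 libraries. Per the submitters' processing notes, Bowtie (version not given) and the TAIR10 build were used; for the quantification program, annotation and strand the sources used here give nothing. The table holds no coordinates, and gene models, symbols and promoters (37792 loci matched) come from RefSeq's TAIR10.1.

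Values were tested as log2(FPKM + 1) with limma 3.58.1 in R 4.3.3, with 4 group means over all 12 libraries, empirical Bayes variances with a trend on mean level (8 residual and 3.29 prior degrees of freedom) and loci whose mean was 1 FPKM or more. Tests are two-sided, adjusted by the Benjamini-Hochberg method over all 19876 loci. The fit and the read recovery were tested on simulated data. Tables were made with pandas 2.3.3 and numpy 2.4.6, and figures with matplotlib 3.10.9, in Python 3.11.15. The kinases and gene lists were chosen with earlier results of these data known. Besides the 10 kinases, genes named are CIPK19, CIPK15, CIPK24, CBL4, SOS1 and up to 3 called genes per list and direction with the largest log2 difference and at least 5 FPKM; 1 gene that this rule selects is not reported here.

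Reads were recovered as a description of depth only: over 10863 genes with 1 transcript, 93.3% to 99.8% of values below 10 reads were within 0.1 of a whole number. No count test was run on them. Alternatives were a pseudocount of 0.1, no filter, quantile normalization, median-ratio scaling, removal of a trend on transcript length, the replicate number as a block, only the libraries compared, no variance trend, and each library left out.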

Additional observations from a re-analysis of the deposited data

Results flagged for a closer look

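Of the 22 CIPK genes tested, 8 are listed here because their salt responses differed between the genotypes. The test was the interaction term of the limma model (Benjamini-Hochberg adjusted over all loci tested). Over all loci tested this term was called above 0 for 16.3% and below 0 for 8.06%. The difference, dcp5-1 minus Col-0 in log2 units, was -0.51 for CIPK20 (limma adjusted p = 2.84e-03), -0.50 for CIPK3 (2.83e-03) and -0.50 for CIPK9 (1.09e-03). It was 0.48 for CIPK14 (4.02e-03), 0.44 for CIPK25 (0.0228), 0.30 for CIPK6 (0.0158), 0.70 for CIPK7 (9.06e-04) and 0.22 for CIPK15 (0.0205). With quantile normalization the calls of CIPK6 and CIPK15 were lost (limma adjusted p = 0.38 and 0.752). The call of CIPK15 was also lost without replicate 3 of dcp5-1 at 60 min. That of CIPK25 was lost without replicate 1 of Col-0 at 60 min, or without replicate 2 of dcp5-1 at either time. The value of CIPK20 subtracts the 0 min difference that chose the gene, so its p is not independent of the choice. Those of CIPK3, CIPK6, CIPK9, CIPK14 and CIPK25 subtract their own 0 min differences. As the basis on which these genes were joined to CIPK20 is not given, their p may depend on the choice too. CIPK9 and CIPK15 are the genes among these whose genotypes overlapped at 0 min and were apart at 60 min. At 60 min CIPK9 was lower and CIPK15 higher in dcp5-1. CIPK14 is the gene whose genotypes were apart at 0 min and overlapped at 60 min. CIPK7 was called in opposite directions in the 2 genotypes, and CIPK15 fell in both, less in dcp5-1.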

How the results depend on the processing

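The direction of CIPK20 at 60 min and its call held under every alternative run, and those of CIPK1, CIPK3 and CIPK9 at 60 min and of the salt responses of CIPK5, CIPK6, CIPK14 and CIPK25 did too. The number of kinases called lower in dcp5-1 at 60 min was 7 with quantile normalization, against 4, and ran from 4 to 7 over the fits that left out 1 library, 7 being the value without replicate 2 of Col-0 at 0 min. The log2 difference of CIPK20 at 0 min was -2.58 with a pseudocount of 0.1 and -2.25 with quantile normalization. Over all loci, quantile normalization moved the interaction from 3248 loci above 0 and 1602 below 0 to 2033 and 2077, and the genotype difference at 0 min from 3731 higher and 5582 lower to 4796 and 4496; the cause was not tested.

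Among values that were not called as reported, the sign changed with the length trend removed for CIPK1 with salt in Col-0 (-0.19) and dcp5-1 (-0.11), CIPK5 (0.065) and CIPK14 (0.036) at 60 min, CIPK24 with salt in Col-0 (-0.085), and SOS1 with salt in Col-0 (-0.33) and at 60 min (0.00084); the Col-0 salt values of CIPK1 and SOS1 then passed the threshold (limma adjusted p = 5.09e-03 and 0.0115). It changed with quantile normalization for the CIPK1 interaction (-0.15), CIPK24 with salt in Col-0 (-0.034) and CIPK19 at 60 min (0.025). Leaving out 1 library changed the sign of 10 values near 0, whose ranges were -0.028 to 0.032 for CIPK5, -0.073 to 0.012 for CIPK14 and -0.12 to 0.015 for CIPK19 at 60 min, -0.0099 to 0.13 for CIPK24 with salt in Col-0, and -0.010 to 0.066 for CIPK1, -0.013 to 0.25 for CIPK5 and -0.16 to 0.00080 for CIPK23 in the interaction. At 0 min, where no test is given, they were -0.25 to 0.0057 for CIPK5, -0.045 to 0.034 for CIPK9 and -0.12 to 0.042 for CIPK23, and quantile normalization gave 0.06 for CIPK9 and 0.03 for CIPK23 and median-ratio scaling 0.02 for CIPK9. The CBL1 and CBL4 calls at 60 min were lost with the length trend removed (limma adjusted p = 0.175 and 0.696) and without some single libraries.

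Replicate numbers did not mark shared deviations: same-numbered libraries of different groups correlated at -0.10 to 0.18 in their deviations from the group means, different numbers at -0.16 to 0.15. With the replicate number as a block the kinases called numbered 8 and 7 with salt, 4 at 60 min and 6 in the interaction, as without it. CIPK25 at 0 min, with 28 to 62 reads, had the least depth of the tested kinases with recovered reads, and the genes with several transcripts have no recovered reads.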
